A study of Mus musculus with 6 samples.

Results

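The AP-1 subunit gene loci are the gene bodies of Fos, Fosb, Fosl1, Fosl2, Jun, Junb, Jund, Atf3, Batf and Batf3 with 50 kb on either side, and they were followed through 6 lists of open-chromatin peaks from mouse intestinal crypts. The 10 genes were picked by name, and a peak counted as a member when its summit, the base of highest signal, lay inside one of the 10 windows. Of 71286 regions in which a peak was called in any list, 142 lay in these windows, and 4 of the 142 were shared by the neighbouring Atf3 and Batf3 windows. A region here is called an element and joins peaks of different lists that overlap by at least 1 base. An element was a promoter where a summit fell from 1000 bp upstream to 100 bp downstream of an annotated transcript start, and distal otherwise. Distances of elements are given from the nearest annotated start of a subunit gene whose window holds them.

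AP-1 is a family of dimeric transcription factors built from FOS, JUN, ATF and BATF proteins with basic leucine zippers. FOS proteins bind DNA only with a partner, while JUN proteins can pair with each other or with FOS, ATF3 and BATF proteins. Many of these genes are immediate early genes, whose promoters are held open and are switched on within minutes by growth factors, stress or injury. In the intestinal epithelium JUN and FOS act downstream of MAP kinases and take part in crypt proliferation and repair.

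Intestinal crypts gave 3 WT and 3 Arid3a cKO samples. The cKO mice were VillinCre-ERT2+/-; Arid3a fl/fl, so that Cre is made in Villin-positive epithelium and becomes active on tamoxifen, and WT mice received tamoxifen as well. Both genotypes were injected on 3 days in a row and collected 1 month after the first injection. The age of the mice and the Cre status of the WT mice were not given in the sources used here, and no label states that each sample was 1 mouse, so the p-values measure the spread between these samples. The lists held 40492, 50704 and 55091 peaks in WT 1 to 3 and 58297, 46415 and 51464 in cKO 1 to 3. The background most often used by the peak caller at the peaks of a list, taken here as genome-wide coverage, was 1.75 to 2.29 fragments per base. Promoter peaks were called at 8 to 10 of 10 crypt epithelium markers per list, at 0 of 8 leukocyte markers in every list and at 2 or 3 of 8 markers of stroma and endothelium, with 0 at Col1a2, Pdgfrb, Pecam1, Cdh5 and Acta2. In crypts taken whole, fewer cells with an open site and less opening per cell cannot be told apart.

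The promoter sequences of Fos and Jun are shown because these genes give the complex its name and lay among the elements of largest difference between genotypes. They are the bases within 100 bp of the summit in Fos and, in Jun, the part of that window upstream of the transcript start. Both are read 5′ to 3′ on the strand of the gene, from GRCm38. Capitals mark the letters TGACATCA, the site type through which JUN dimers bind the Jun promoter. In Jun these letters began 45 bp and ended 38 bp upstream of the annotated start. The Fos stretch, chr12:85473659-85473859, lay just upstream of the gene, and the Jun stretch, chr4:95052223-95052387, lay upstream of Jun in an intron of the divergent long non-coding RNA Junos.
Fos promoter: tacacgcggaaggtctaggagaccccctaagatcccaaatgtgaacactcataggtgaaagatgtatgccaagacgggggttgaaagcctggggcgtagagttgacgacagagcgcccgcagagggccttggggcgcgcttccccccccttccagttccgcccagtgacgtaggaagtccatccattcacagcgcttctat
Jun promoter: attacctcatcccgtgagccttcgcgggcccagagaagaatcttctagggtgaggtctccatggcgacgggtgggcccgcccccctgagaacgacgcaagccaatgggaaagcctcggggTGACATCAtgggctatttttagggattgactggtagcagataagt

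Within 100 bp of a summit the AP-1 site TGACTCA, read on either strand, stood in 11 of the 142 elements, a share of 7.75% against 8.11% of all elements. It was under 9 of 98 distal elements of the windows (9.18%, against 9.56% of all distal elements) and under 1 of 10 promoter elements of the subunit genes themselves, at Fosl2. Shown are all elements with the site that were called in 6 of 6 lists and lay at a subunit promoter or distal. They have 10 bases on each side of the site, which is in capitals and on the strand that reads TGACTCA. They were picked as AP-1 letters close to the genes of its subunits, and no link of a distal element to a gene was tested.
Fosl2 promoter (chr5:32135844-32135870): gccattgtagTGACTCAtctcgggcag
Fosl2 distal, 49.6 kb downstream (chr5:32196063-32196089): gggctcacggTGACTCAtttataggaa
Atf3 distal, 1.71 kb downstream of an Atf3 start (chr1:191216295-191216321): gcccagcggcTGACTCAtctgacatta
Atf3 distal, 13.4 kb downstream (chr1:191169634-191169660): actgagactcTGACTCAaagcaaacaa
Fosl1 distal, 17.45 kb upstream (chr19:5430040-5430066): tagcatctcaTGACTCAgccacttcca
Fosl1 distal, 14.0 kb upstream, first site (chr19:5433531-5433557): tcaggctccaTGACTCActcccttgcc
Fosl1 distal, 14.0 kb upstream, second site (chr19:5433553-5433579): ttgccccccaTGACTCAgtttacacca
Fosb distal, 6.99 kb upstream (chr7:19316990-19317016): ttctctaaggTGACTCAgatgccgaga
Fosb distal, 17.3 kb upstream (chr7:19327338-19327364): tccccgctgaTGACTCAttacgtcatc

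The other motifs were as sparse. Both strands were searched. The cyclic AMP response element TGACGTCA was under 0 of 142 elements (0.735% of all elements). TGACATCA was under 3 (2.11%, against 1.26%), the CArG box bound by serum response factor under 4 (2.82%, against 1.01%), and the HNF4 letters CAAAGTCCA or CAAAGTTCA under 4 (2.82%, against 2.52%). The ARID3 letters ATCAAA or ATTAAA were under 11 elements (7.75%, against 16.1%), of which 8 were distal (8.16%, against 19.02% of all distal elements) and 0 were subunit promoters. The distal elements of the windows had a median GC content of 52.7%, against 49.3% over all distal elements. A match gives letters only and not a bound site, and these shares were not tested.

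All windows held peaks in every list, and the number per list did not separate the genotypes at any of the 10 loci. The windows together held 95, 119 and 120 peaks in WT and 123, 118 and 112 in cKO, 111 ± 14.2 and 118 ± 5.51 (SD, n = 3). Fosb and Atf3 had the most peaks, 16 to 20 and 14 to 20 per list, and Batf the fewest, 2, 4 and 6 in WT and 7, 5 and 6 in cKO. Counts overlapped at 10 of 10 loci. Over all 21938 protein-coding genes with the same window, counts were higher in every cKO list at 1.15% and lower in every cKO list at 0.428%. With every list limited to its 40492 peaks of highest -log10 q the difference in the total, cKO minus WT, turned from 6.33 to -5.67 peaks.

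**Figure D1:**
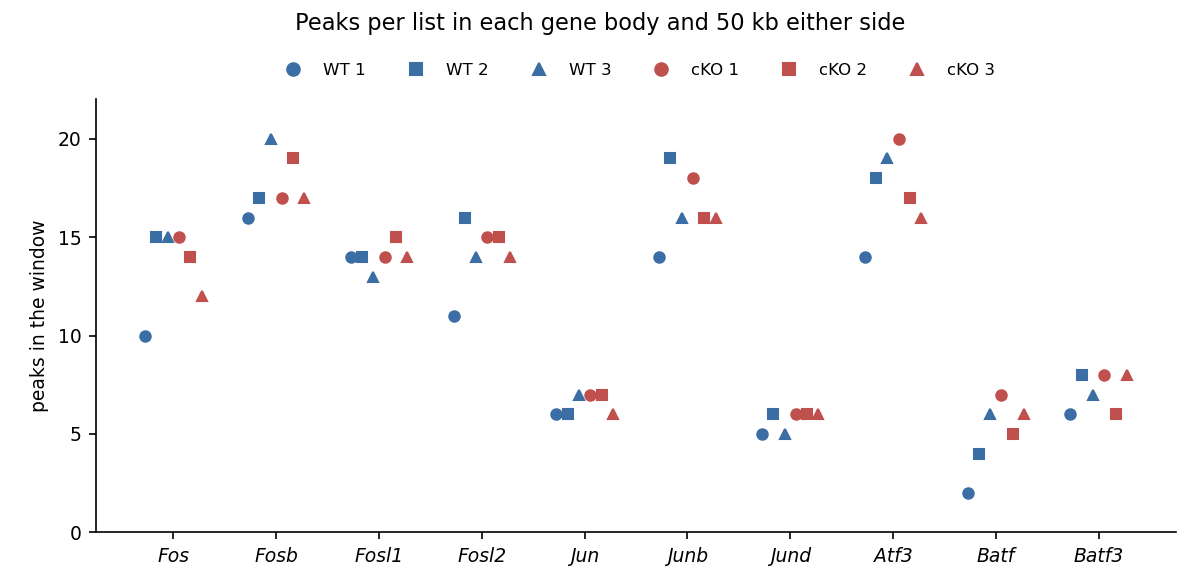
Number of peaks per list (y axis) in each of the 10 windows (x axis, gene body and 50 kb either side), with 1 point per list, WT in blue and cKO in red. WT and cKO points overlap at every locus, and Batf has the fewest peaks in WT 1, with 2.

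The FOS genes had open promoters in every list, and at Fos, Fosb and Fosl2 both the signal at the summit and the signal around it ranked high. The fold of a peak is its pileup of fragments at the summit over the local background, each plus 1, and is given here as a percentile within its own list (100 is the highest peak). The Fos promoter element, chr12:85473252-85474588, reached fold percentiles of 47.8, 51.2 and 47.8 in WT and 19.9, 47.2 and 26.9 in cKO. The values of cKO 1 and cKO 3 lay well below WT, and that of cKO 2 lay just below the lowest WT value. The pileup at each list's own summit in this element was 111, 221 and 281 fragments in WT and 315, 173 and 240 in cKO. That placed it at percentiles 96.1 to 98.6 of the lists. The local background was 20.9, 34.1 and 46.5 fragments in WT and 77.7, 29.7 and 53.3 in cKO, at percentiles 99.7 to 99.9. By pileup Fos was among the top peaks of each list, and by fold it was in the middle or below. The local background percentile was higher in every cKO list than in every WT list.

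The Fosb promoter, chr7:19309998-19310785, had the same arrangement. Its fold percentile was 54.2, 47.4 and 51.2 in WT and 24.3, 49.0 and 22.1 in cKO, so that cKO 2 lay within the WT range and the other cKO lists below it, while its pileup percentile stayed between 88.6 and 91.1 in all 6 lists. The main Fosl2 promoter, chr5:32135000-32136778, stood at fold percentiles 36.0, 36.2 and 33.3 in WT and 21.3, 30.2 and 14.9 in cKO, all cKO values below all WT values. Its pileup percentile was 96.5 to 98.6 in all lists and did not separate the genotypes. A second annotated Fosl2 start had a peak in cKO 2 alone. Fosl1, which codes for FRA1 and is itself an AP-1 target in many epithelial cells, differed from the other FOS genes. Its promoter, chr19:5447274-5449015, was at fold percentiles 67.6, 77.4 and 76.9 in WT and 77.5, 72.7 and 70.02 in cKO, with a pileup percentile of 77.5 to 88.5 and a local background percentile of 79.7 to 87.8.

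Among the JUN genes, Jun had the largest difference in mean fold percentile of the 83 elements of the windows called in all 6 lists, although on the score tested, described with the tests, an element inside Atf3 differed by more. The Jun promoter element, chr4:95050571-95053882, had fold percentiles of 47.6, 31.8 and 32.1 in WT and 10.4, 32.5 and 8.4 in cKO. The list of cKO 2 again lay with the WT lists. The pileup was 122, 206 and 257 fragments in WT and 287, 159 and 215 in cKO, and as a percentile it was 97.5, 97.4 and 97.8 in WT and 96.4, 97.1 and 97.0 in cKO. Jun was thereby the 1 subunit promoter at which the pileup percentile was lower in every cKO list than in every WT list, by less than 2 percentile points. The local background was at percentiles 99.8 to 99.9 and overlapped between genotypes. The Jun peak was also among the widest of each list, 2341 to 3188 bp, at width percentiles 99.3 to 99.9.

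Junb, whose product can replace and also oppose JUN, had elements at 2 annotated starts. The outer one, chr8:84977459-84979025, was at fold percentiles of only 0.49, 3.49 and 1.61 in WT and 0.52, 2.51 and 0.08 in cKO, although its pileup percentile was 87.3 to 93.9. The inner one, chr8:84975684-84976791, was at fold percentiles 25.4, 32.9 and 26.4 in WT and 15.8, 31.0 and 11.5 in cKO, with a pileup percentile of 97.6 to 99.5. The local background around both was at a percentile of at least 99.9 in every list, and WT and cKO overlapped at both.

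No peak was called at Jund in any list, and the nearest summit was 25.5 kb from its start. Jund, the most steadily expressed JUN gene in most tissues, lay on chr8 in a stretch of 172 kb without a peak in any list, between a peak ending at 70674276 and one starting at 70846701. The stretch held 10 protein-coding genes, among them Rab3a, Pik3r2, Ifi30 and Mast3. Of this stretch, 99.4% is present a second time in the assembly as a patch sequence. Aligned to chromosome 8, the patch covered 70673831 to 70845694, with 171859 matching bases in 171864 aligned columns and 5 differing ones. None of the other 9 windows had such a copy of at least 5 kb at 95% identity. Each of the 6 lists had 0 peaks on chromosome 8 within the copied span and 3 peaks on the patch. Of the 5 differing bases, 3 lay within 10 bp of a summit on the patch in every list, and the others were 864 to 865 bp and 2106 to 2107 bp from the nearest one. A read that covers none of the differing bases matches both copies. The part of the second copy in the missing calls was not tested, and no level of Jund was read from them.

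**Figure D2:**
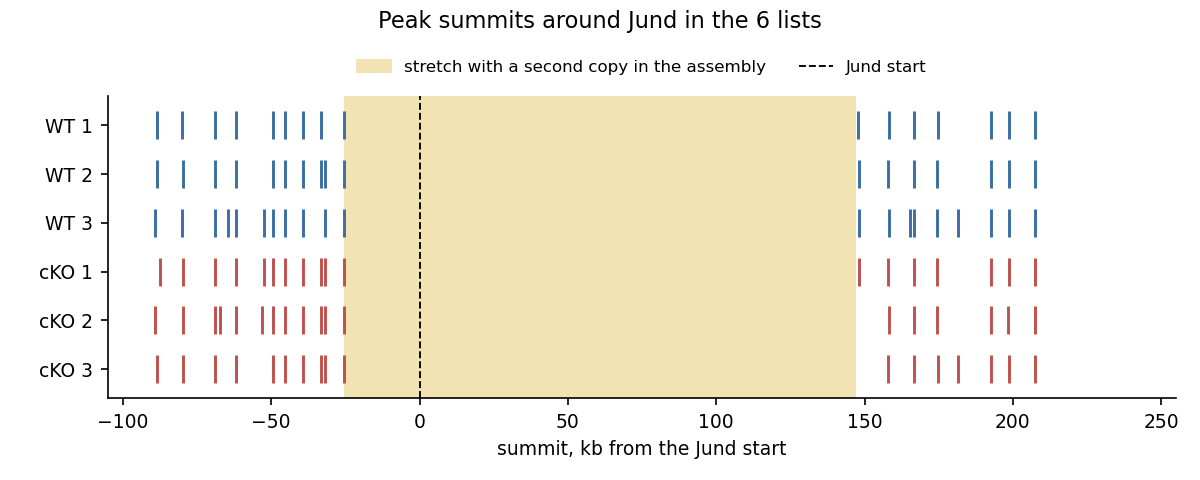
Peak summits around Jund in each list (rows, WT in blue and cKO in red) by distance from the Jund start (x axis, kb), with the stretch that has a second copy in the assembly shaded. The 6 lists have 0 summits within the shaded stretch and summits on both sides of it.

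Of the remaining members, Atf3, a stress-induced repressor and activator, was open at an internal annotated start. The element, chr1:191182532-191185621, lay in an Atf3 intron and had fold percentiles of 56.8, 56.0 and 52.9 in WT and 35.6, 64.2 and 34.1 in cKO. By pileup it was at percentiles 98.6 to 99.7, among the highest of each list. Batf3, known from dendritic cells, had a weaker promoter peak, chr1:191096903-191098876, at fold percentiles of 33.5, 51.4 and 54.8 in WT and 65.9, 56.9 and 39.2 in cKO, and its pileup percentile was 28.4 to 52.6. A summit fell inside its promoter limits in 5 of 6 lists. Batf, best known from lymphocytes, had no summit within its promoter limits in any list. The nearest element, chr12:85686663-85687339, was called in WT 3, cKO 1 and cKO 2, at fold percentiles of 13.8, 18.5 and 39.1. It covered the annotated Batf start at 85686669 and counted as distal because its summits lay more than 100 bp downstream. The nearest of them was 218 bp from that start.

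**Figure D3:**
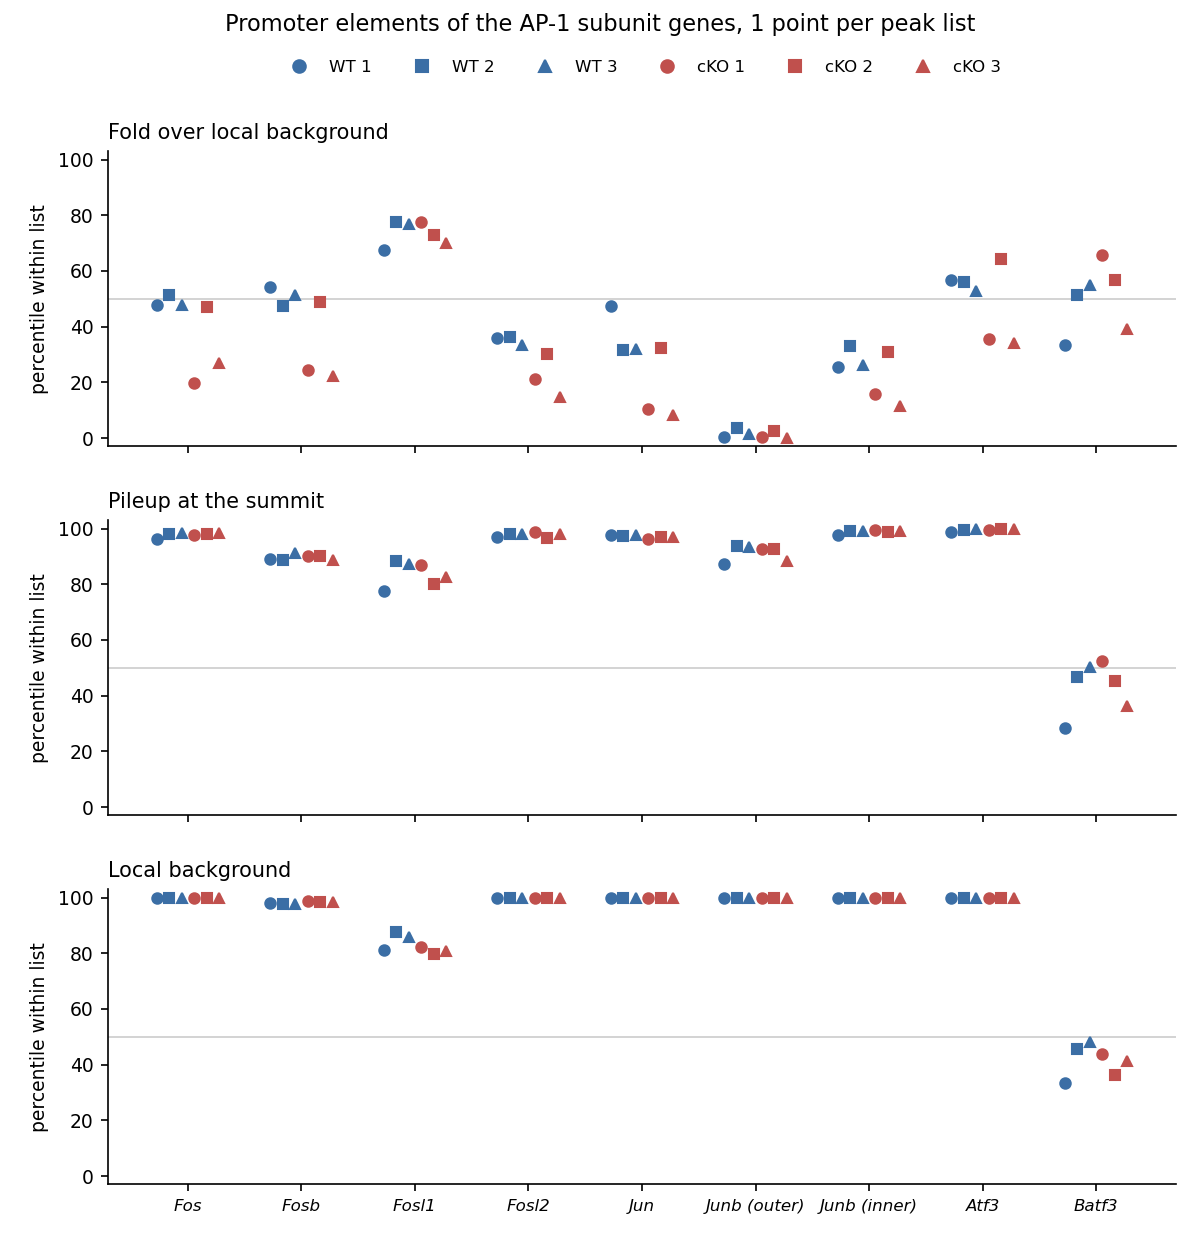
Percentile within the list (y axis) of the fold, the pileup at the summit and the local background at the 9 subunit promoter elements called in all 6 lists (x axis), with 1 point per list, WT in blue and cKO in red. The fold percentiles of cKO 1 and cKO 3 lie below those of WT at Fos, Fosb, Fosl2, Jun, the inner Junb element and Atf3, while the pileup percentiles of WT and cKO overlap at all of these but Jun, where cKO is lower.

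The genotypes were compared by limma on normal scores of the fold rank, over the 32748 elements called in all 6 lists, with Benjamini-Hochberg adjustment. At the 9 subunit promoter elements tested, 0 passed an adjusted p of 0.05, as did 0 of all 83 shared elements of the windows and 0% of all elements tested. By unadjusted p under 0.05 there were 4 of 83 (4.82%), against 5.78% of all elements. The 4 were the Jun promoter, a distal element inside Atf3 and the element 1.58 kb upstream of Fos, all lower in cKO, and the Flvcr2 promoter in the Batf window, which was higher. For the Jun promoter the limma score differed by -0.70 ± 0.30 (cKO minus WT, SE), with an unadjusted p of 0.0408 and an adjusted p of 0.773. For Fos the difference was -0.48 ± 0.26 (adjusted p = 0.773), with a 95% interval from -1.05 to 0.08. Those of Fosb, Fosl2, Junb inner, Junb outer and Atf3 ran from -0.52 to -0.27, Fosl1 was at -0.02 and Batf3 at 0.19. The score was lower in cKO at 8 of the 9, against 60.3% of all promoter elements, and at 57 of the 83 (68.7%), against 50.6% of all elements. The median difference was -0.16 over the 83 and -0.00466 over all elements tested.

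The 2 parts of the fold were then compared apart. They are not independent, because without a described input control the local background comes from fragments of the same sample around the summit. How much a peak adds to its own background was not tested. The log2 pileup, each list centred on its median, differed by -0.05 ± 0.13 at Fos (95% interval -0.31 to 0.21), by -0.16 ± 0.13 at Jun (-0.41 to 0.09), and by -0.18 to 0.02 at all 9 promoters. It was lower at 55 of the 83 (66.3%), against 56.9% of all elements, and at 8 of the 9 promoters, against 61.7% of all promoter elements. By the rank of the pileup in place of its log2, Fos, Fosl2, the inner Junb element and Atf3 were higher in cKO, by 0.047, 0.023, 0.12 and 0.19. The limma test of the pileup called 28 of the 32748 elements (0.0855%) and 0 of the 83 in the windows, with a lowest adjusted p of 0.290 and with 4 at an unadjusted p under 0.05 (4.82%, against 7.21%). Over all elements it called 3 to 61 on leaving out 1 sample, with 3 without cKO 1 and 61 without cKO 2. The log2 local background was higher in cKO by 0.26 ± 0.39 at Fos and by 0.22 ± 0.47 at Jun, and was below WT at 2 of 9 promoters, Fosl1 and Batf3, against 36.2% of all promoter elements, and at 31 of the 83 (37.3%), against 50.2%. The test of the local background called 109 elements (0.333%) and 0 of the 83, with 8 at an unadjusted p under 0.05 (9.64%, against 10.1%). The lists of cKO 1 and cKO 3, in which the fold percentiles were low, also had the widest peaks (median 724 and 750 bp, against 600 to 639 bp in the other 4) and the highest genome-wide coverage, 2.29 and 2.18 fragments per base. The part of these differences between lists in the fold ranks was not tested.

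Elements whose fold percentiles did not overlap between genotypes were mostly lower in cKO. Among the 83 shared elements, 13 were lower in every cKO list than in every WT list (15.7%), against 7.04% of all shared elements and 8.88% of promoter elements, and 1 was higher (1.205%, against 4.66%). The promoters of Fos and Fosl2 were among the 13, as were elements 1.58 kb and 43.7 kb upstream of Fos, and 3.37% of all promoter elements were higher. The 1 higher was the Flvcr2 promoter in the Batf window. By pileup percentile 2 were lower (2.41%, against 1.4% of all elements), the Jun promoter and an element 18.6 kb upstream of Fos, and 4 higher (4.82%, against 6.44%). By local background percentile 11 were higher (13.3%, against 5.59%), among them the Fos and Fosb promoters, and 1 was lower (against 1.68%), the Batf intron element. The count of lower elements rested on the lists included: it was 37 of 84 without cKO 2 (44.0%, against 20.9% of all elements) and 25 of 91 without WT 1 (27.5%, against 15.2%). It was 8 of 76 in lists of equal length (10.5%, against 7.03%) and 6 of 70 at -log10 q of at least 5 (8.57%, against 6.24%), nearer to the share of all elements. Ranked by -log10 q in place of fold, 3 were lower (3.61%, against 2.24% of all elements) and 4 higher (4.82%, against 6.72%).

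**Figure D4:**
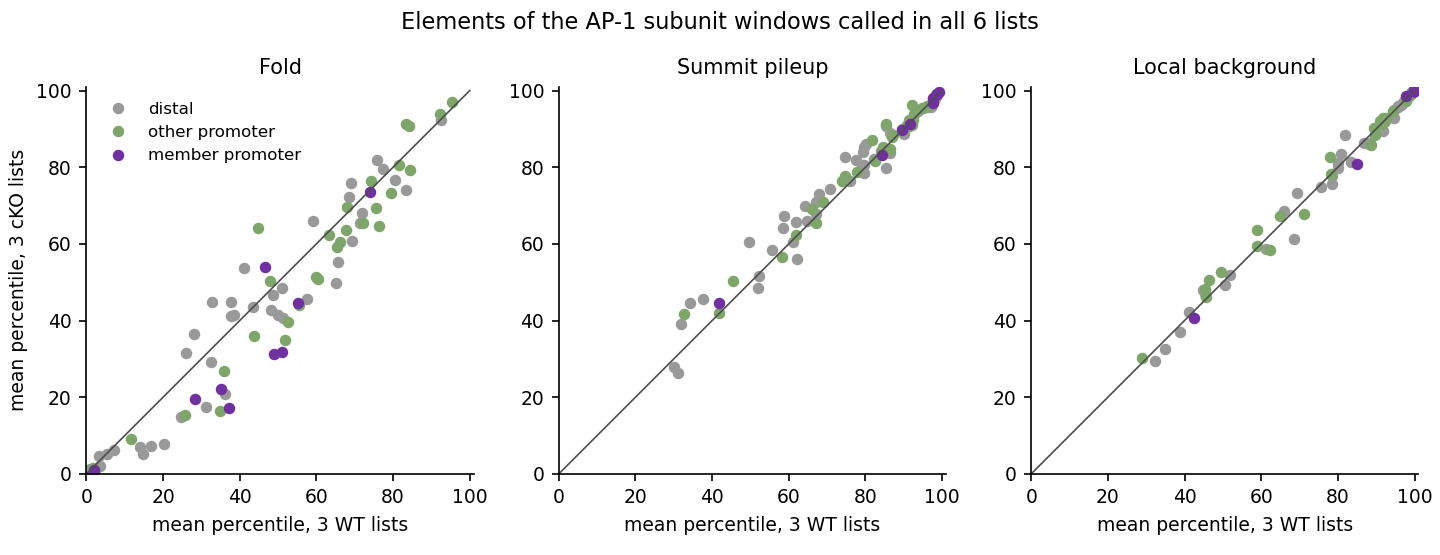
Mean percentile over the 3 cKO lists (y axis) against that over the 3 WT lists (x axis) for the 83 elements of the windows called in all 6 lists, by fold, summit pileup and local background, with the line of equality. By fold, the subunit promoters (purple) lie below the line except Batf3, with Jun at 37.1 in WT and 17.1 in cKO.

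Promoters ranked above distal elements in the windows, as in the whole lists, but both classes ranked lower. The median fold percentile of promoter peaks in the windows was 57.1, 60.9 and 52.1 in WT and 49.0, 54.3 and 38.5 in cKO, and over all promoter peaks it was 75.2 to 79.3. For distal peaks it was 27.6, 32.1 and 34.6 in WT and 28.8, 24.9 and 18.3 in cKO, against 39.5 to 42.8 over all distal peaks. The step from distal to promoter was 25.3 ± 6.70 percentile points in WT and 23.3 ± 5.31 in cKO (SD, n = 3), a difference of -2.01 that was smaller than either SD. That difference depended on the setting: it was -12.0 in lists of equal length, -10.4 in windows of 20 kb, -5.96 at -log10 q of at least 5 and 2.46 by rank of -log10 q. Over whole lists the step was 38.3 ± 0.858 in WT and 35.0 ± 3.19 in cKO. By pileup the order of windows and whole lists changed. Promoter peaks of the windows stood at a median percentile of 82.8 to 88.6 and distal peaks at 62.8 to 70.03, against 79.0 to 83.0 and 39.0 to 41.4 over the whole lists.

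**Figure D5:**
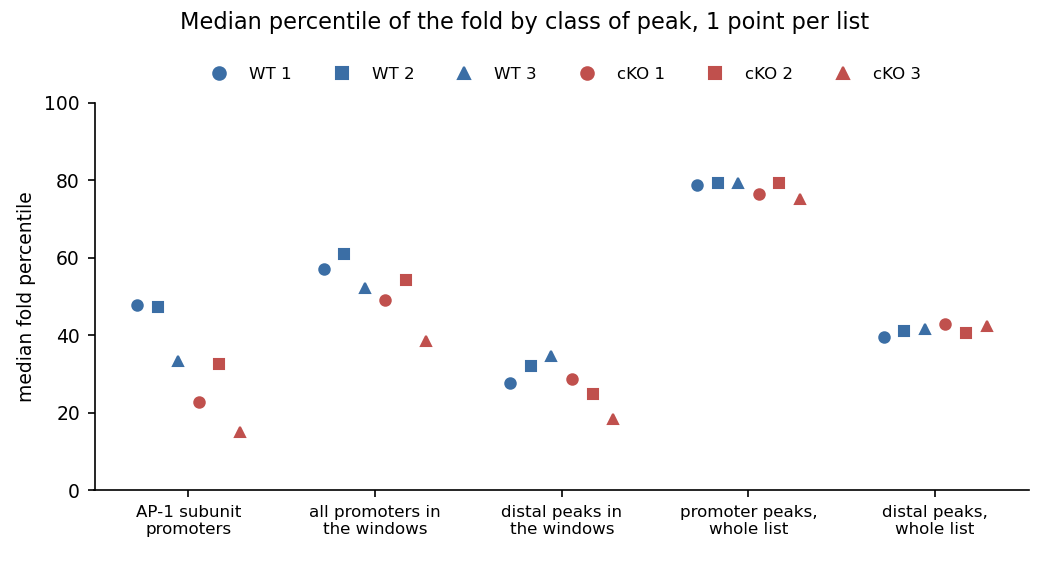
Median percentile of the fold (y axis) for the subunit promoters, all promoter peaks and distal peaks of the windows, and promoter and distal peaks of the whole list (x axis), with 1 point per list, WT in blue and cKO in red. Subunit promoters lie at 14.9 to 47.8, below the 75.2 to 79.3 of all promoter peaks. Their medians are over 7, 9 and 9 peaks in WT and 8, 11 and 11 in cKO. An element can hold several peaks of a list, so the lists differ in the peaks counted and these medians do not compare the genotypes.

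Each locus had distal elements that were called throughout. Of 98 distal elements 44 were called in all 6 lists and 15 in a single list, and over both classes 83 of 142 were called in all 6 (58.5%, against 45.9% of all elements). The strongest by mean fold percentile lay in an intron of Batf itself, chr12:85704988-85706167, 16.2 kb downstream of the nearer Batf start. Its mean pileup percentile was 82.5, against 98.3 at the leading distal element of Fos. No summit fell within the Batf promoter limits in any list, although the element called in WT 3, cKO 1 and cKO 2 covered the Batf start. The intron element was at fold percentiles 86.2, 98.1 and 93.2 in WT and 97.6, 82.4 and 97.0 in cKO. Its log2 pileup differed by -0.42 ± 0.13 (limma, adjusted p = 0.290), the lowest p of the windows by pileup. The strongest distal element of Fos by fold, chr12:85485543-85487918, lay in intergenic sequence 11.1 kb downstream of the nearest annotated Fos start. It was at 80.8, 84.3 and 85.1 in WT and 65.1, 85.6 and 71.3 in cKO. That of Jun, chr4:95068179-95068996, lay 16.3 kb upstream in an intron of Junos, at 61.0, 72.0 and 75.0 in WT and 67.9, 45.3 and 68.7 in cKO.

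The leading distal element of Fosl2 lay 36.8 kb downstream in intergenic sequence (80.6 ± 2.03 in WT and 76.6 ± 0.913 in cKO, SD, n = 3) and that of Atf3 in an Atf3 intron 10.7 kb upstream of the nearest start (77.3 ± 3.37 and 79.5 ± 1.69). Those of Fosb, Fosl1, Junb and Batf3 had mean fold percentiles of 68.9 to 75.7 in WT and 65.5 to 81.9 in cKO, and adjusted p-values of 0.827 to 0.878. They lay 9.996 kb upstream at Fosb and 9.41, 23.5 and 25.6 kb downstream at Fosl1, Junb and Batf3. The Fosl1 element, in a coding exon of Ccdc85b, and the Fosl2 element had lower fold percentiles in every cKO list than in every WT list. At the leading distal elements of the other loci the genotypes overlapped. The leading element of the Jund window was in an intron of Pgpep1, 45.4 kb upstream, at 51.2 ± 3.44 and 40.6 ± 15.2.

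The 5 largest differences in mean fold percentile were, in order of size, those of the promoters of Jun (-20.1), Mast1 (19.5), Fosb (-19.1), Cfl1 (-18.5) and Fos (-17.6). The Mast1 promoter, in the Junb window, went from 16.6, 66.9 and 50.5 in WT to 76.1, 49.3 and 67.1 in cKO, with overlap. The promoter of Cfl1, the actin-severing protein cofilin, in the Fosl1 window, went from 49.3, 25.5 and 29.7 to 19.7, 17.999 and 11.2, without overlap. The distal element inside Atf3 that had the lowest p by fold rank, chr1:191173294-191174397, was named after its values were seen. It was at fold percentiles of 1.64, 2.13 and 1.44 in WT and 0.263, 0.261 and 0.0117 in cKO, among the weakest peaks of each list by fold. Its limma score differed by -0.97 ± 0.32 (adjusted p = 0.773), and its pileup percentile was 71.3 to 83.3.

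No element of the windows was particular to a genotype. Elements called in 3 of 3 cKO and 0 of 3 WT lists numbered 0 of 142, against 0.464% of all elements, and the reverse numbered 0, against 0.111%. The nearest cases were both in the Fosb window. The promoter of D830036C21Rik, chr7:19342650-19343673, was called in 2 cKO and 0 WT lists, and a distal element 25.7 kb upstream of Fosb, chr7:19335576-19335871, in 2 WT and 0 cKO lists.

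Of the 7 distal elements with TGACTCA that were called in all lists, 4 had a lower and 3 a higher score in cKO, and 0 passed the limma test. The element 17.3 kb upstream of Fosb was at a mean fold percentile of 59.0 ± 8.93 in WT and 66.02 ± 7.54 in cKO (SD, n = 3) and its log2 pileup differed by 0.31 ± 0.13 (adjusted p = 0.597). The element 49.6 kb downstream of Fosl2 was at 57.6 ± 4.17 and 45.7 ± 5.94, with a log2 pileup difference of -0.25 ± 0.13 (adjusted p = 0.704). Those at Atf3, 1.71 kb downstream of a start, and at Fosl1, 14.0 kb upstream, had score differences of 0.10 ± 0.20 and 0.10 ± 0.24. Lower were those at Atf3, 13.4 kb downstream (-0.48 ± 0.28), at Fosb, 6.99 kb upstream (-0.47 ± 0.33), and at Fosl1, 17.45 kb upstream (-0.10 ± 0.50). The Atf3 element 13.4 kb downstream was at mean fold percentiles of 0.51 in WT and 0.11 in cKO, without overlap.

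Promoters of companion genes gave 0 calls in each direction in every group, by fold rank and by pileup. Among 11 relatives and partners of AP-1 (ATF, MAF and NFE2 family genes and Batf2 and Jdp2), 11 were tested and 9 were lower in cKO by mean fold percentile. The largest differences were those of Nfe2l2, the oxidative stress regulator NRF2 (68.3 ± 5.93 in WT and 56.0 ± 14.3 in cKO), and Mafk, its small MAF partner (65.1 ± 6.86 and 53.0 ± 13.2). Atf2, a JUN partner activated by stress kinases, was the 1 gene of this group with an unadjusted p under 0.05 and was named for it afterwards (96.7 ± 0.579 and 91.9 ± 1.33, limma adjusted p = 0.773). Of 13 upstream kinases and regulators 12 were tested and 10 were lower, led by Srf, which drives Fos (65.6 ± 3.22 and 49.7 ± 14.4), and Mapk3, the kinase ERK1 (37.6 ± 15.2 and 27.0 ± 14.8). Of 12 other immediate early genes 10 were tested and 9 were lower, led by Klf6 (77.2 ± 4.55 and 66.4 ± 10.3) and Dusp6, an ERK phosphatase (64.3 ± 1.22 and 56.0 ± 7.84), and Egr2 had no promoter summit in any list. Beside these counts by mean fold percentile, 60.3% of all promoter elements were lower in cKO by the limma score of the fold rank. By log2 pileup 4 of 11, 10 of 12 and 7 of 10 of the companion genes were lower, against 61.7% of all promoter elements. Their median differences were 0.05, -0.05 and -0.05. Crypt epithelium markers, as a check on the tissue, were lower at 9 of 10 by fold, led by Axin2 (70.8 ± 8.96 and 57.2 ± 2.09) and Epcam (70.1 ± 3.25 and 57.1 ± 5.75), and at 5 of 10 by pileup. Of the stromal markers Col1a1 and Pdgfra were tested, with adjusted p-values of 0.831 and 0.869.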

How the data were processed

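Open chromatin was measured by ATAC-seq, in which Tn5 transposase cuts accessible DNA, in 3 WT and 3 Arid3a cKO crypt samples. Reads were trimmed, aligned by the authors with BWA to the Ensembl GRCm38 sequence with its patches, and filtered, and narrow peaks were called per sample with MACS2 without a described input control. The deposited fold is the ratio of the summit pileup to the local background, each plus 1. The −log10 p and −log10 q deposited by the authors come from a Poisson model, and the deposited score is derived from the latter. Read counts were not used here. The pileup and the background were recovered from the fold and −log10 p, and the pileup came out as a whole number at 100% of peaks.

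Samples were grouped by title. The 61 to 92 peaks per list outside chromosomes 1 to 19, X and Y entered no rank. Genes came from GENCODE M21, printed sequences from GRCm38, and a table of promoters from RefSeq. Of 10 subunit genes 9 matched it (not Fosl1), and TGACATCA stood in 1 of these, Jun, and in 3.62% of its 32851 promoters. Ranks were tested with limma 3.58.1 (R 4.3.3) without replicate block and tested on simulated data. Patch copies were aligned with minimap2 2.31. Python 3.11.15 was used otherwise.

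The members, gene lists and tests were chosen with earlier results of these data known. Text names every promoter element of the 10 genes, each locus' distal element of highest mean fold percentile among those called in all 6 lists, any called element, any element called in 3 of 3 against 0 of 3, the 5 largest differences and the 2 largest of each companion list, with exceptions marked as singled out. None of the distal elements named by this rule held TGACTCA, so the site sequences shown were chosen after the values were seen. Alternatives were other ranks and scales, the replicate block, stricter or equal lists, other windows and leaving out each sample.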

Additional observations from a re-analysis of the deposited data

How the results depend on the processing

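Junb stands in this section for its inner element alone, and the outer one was not recomputed. In 184 recomputed values of the subunit promoters 0 passed an adjusted p of 0.05 by limma, and the lowest adjusted p, 0.301, came without cKO 2. The direction was kept in 165, but not all of these could turn. In this balanced design a replicate block cannot change the difference, only its p-value. Taking elements called in at least 3 lists, or grouping summits within 200 bp, returned the same differences at these promoters. The score of Fosl1 was 0.027 at -log10 q of at least 5 and -0.12 to 0.033 on leaving out 1 sample, that of Atf3 0.051 by rank of -log10 q, and by log2 pileup Atf3 was at 0.020 and Batf3 at -0.11. By rank of pileup, chosen after seeing the data, Fos was at 0.047, Fosl2 at 0.023, Junb at 0.12 and Atf3 at 0.19. By log2 pileup, on leaving out 1 sample, Fos ranged from -0.19 to 0.017, Junb from -0.15 to 0.076, Atf3 from -0.13 to 0.11 and Batf3 from -0.25 to 0.048. The cause was not tested.

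Calls over all elements, 0 by fold rank, were 1 by log2 fold, 28 by log2 pileup, 2 by rank of pileup and 1 with elements called in at least 3 lists; by log2 pileup they were 3 to 61 on leaving out 1 sample and 41 with the replicate block. In the windows 0 were called under each of these. With the replicate block on the fold rank 0 elements were called, and 1 of the 83 had an unadjusted p under 0.05, against 4 without it. The labels do not say whether the sample numbers pair WT with cKO. Same-numbered samples deviated with correlations of -0.272, -0.0186 and 0.125, and other-numbered ones with -0.328 to 0.308. With 3 samples per genotype these values cannot settle whether the numbers pair samples.

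Elements lower in every cKO list numbered 6 at -log10 q of at least 5 (8.57%, against 6.24% of all elements), 8 in lists of equal length (10.5%, against 7.03%), 8 in windows of 20 kb (17.0%, against 7.04%), 3 by rank of -log10 q (3.61%, against 2.24%) and 13 to 37 on leaving out 1 sample (15.7% to 44.0%, against 9.02% to 20.9%). Elements higher numbered 0 in windows of 20 kb and 4 in windows of 100 kb (3.15%, both against 4.66%), 4 by rank of -log10 q (4.82%, against 6.72%) and 2 to 4 on leaving out 1 sample (2.20% to 4.82%, against 6.38% to 17.3%). Elements called in all lists of a single genotype numbered 0 to 1 on leaving out 1 sample. With 1 list fewer this rule is looser, and its share over all elements was not computed. The peaks per list, cKO minus WT, came to -5.67 in lists of equal length and -1.83 to 10.7 on leaving out 1 sample. The step from distal to promoter was 18.5 in lists of equal length and 33.1 by rank of -log10 q; its difference between genotypes was -12.0 in lists of equal length, -10.4 in windows of 20 kb and 2.46 by rank of -log10 q. Leaving out each sample gave steps of 23.3 to 25.7 and differences of -5.87 to 0.0921.

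Peak lists hold no values where no peak was called, and 3 samples per genotype limit the precision.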
